A study of Mus musculus with 10 samples.

Results

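The 38 genes described here encode the main proteins of tight junctions (15 genes), adherens junctions (10 genes) and desmosomes (13 genes). They were chosen by gene symbol from the deposited table of read counts per Ensembl gene, which lists 55335 genes, and each of the 38 symbols matched 1 row. RNA had been sequenced from 10 whole mouse mammary tumours, 5 grown in hosts that drank doxycycline (named DOX) and 5 in hosts that drank sugar water (named no_DOX). Every tumour arose in the FVB background from mammary epithelial cells carrying the Wap-Myc transgene, in which the Wap promoter of the pregnant and lactating gland drives Myc. All of these cells had been transduced with the lentiviral construct pIND21-HPN, which carries the serine protease hepsin under doxycycline control, and transplanted into fat pads of hosts aged 3 weeks. Doxycycline at 2 mg/ml in 5% sucrose started 3 days later, Myc was switched on at 8 weeks of age through 2 pregnancies, and tumours were taken at 1 cm. The labels do not say whether tumours came from separate hosts, so p-values cover the spread among the 10 samples, which may be technical in part, and with the construct in both groups the effects of doxycycline and of hepsin cannot be told apart.

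Epithelial cells adhere through 3 kinds of junction. Tight junctions seal the space between cells with strands of claudins and with occludin-type MARVEL proteins, which bind cytoplasmic scaffolds. Adherens junctions join the actin cytoskeletons of neighbouring cells through E-cadherin or P-cadherin and catenins, and through nectins and their adaptor afadin. Desmosomes join the keratin networks, with desmogleins and desmocollins in the membrane and plakoglobin, plakophilins and plakins beneath it. In the mammary gland, luminal cells carry the tight junctions that close the milk space, and myoepithelial cells are rich in P-cadherin and in desmosomes. Hepsin is a membrane-bound protease of epithelial cells.

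Depth was 14256948 to 20469533 counts in 9 tumours and 39358457 in DOX 3. Reads on the mouse hepsin gene Hpn averaged 31.7 ± 8.55 CPM in DOX tumours and 21.7 ± 4.69 CPM in no_DOX tumours (SD, n = 5 each), and the sources used here do not say which species' hepsin the construct encodes. The edgeR adjusted p of Hpn was 0.247, and DOX 2 was highest at 46.1 CPM. The groups overlapped, with no_DOX 1 at 25.8 CPM above DOX 3 at 25.1 CPM. The tumours expressed the epithelial keratin genes Krt8 at 395 ± 77.6 CPM in DOX tumours and 338 ± 66.9 CPM in no_DOX tumours and Krt18 at 241 ± 103 CPM in DOX tumours and 208 ± 66.8 CPM in no_DOX tumours (SD, n = 5 each). CPM are read counts scaled to the size of each library after TMM correction for composition. In bulk RNA, fewer cells of a type and less RNA per cell cannot be told apart, and this holds for all levels given here.

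Promoter windows of 300 bases from RefSeq (build GRCm38.p6) were used for 21 of the 38 genes, with a chromosome left out. They are shown for Cldn7 and F11r, the tight junction genes higher with doxycycline with the smallest p-values, and for Cgn and Ocln, the lower ones with the smallest p-values, because the E-box that Snail-family repressors bind was searched in them (CACCTG or its reverse complement CAGGTG, both strands, no overlap with another motif). Each line runs 5′ to 3′ on the gene's strand from 250 bases before a transcription start to 50 after it, and capitals mark the E-box. Both start sites of Cldn7 (plus strand) and of Ocln (minus strand) are given, F11r lies on the plus strand and Cgn on the minus strand, and the Ocln windows overlap.
Cldn7, chr11:69964529-69964828: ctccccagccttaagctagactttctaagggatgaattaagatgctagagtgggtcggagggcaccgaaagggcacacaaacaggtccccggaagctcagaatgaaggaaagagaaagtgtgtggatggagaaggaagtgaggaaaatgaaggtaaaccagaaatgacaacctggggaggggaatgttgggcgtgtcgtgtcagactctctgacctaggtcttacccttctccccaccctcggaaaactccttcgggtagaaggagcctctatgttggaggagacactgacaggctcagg
Cldn7, chr11:69965171-69965470: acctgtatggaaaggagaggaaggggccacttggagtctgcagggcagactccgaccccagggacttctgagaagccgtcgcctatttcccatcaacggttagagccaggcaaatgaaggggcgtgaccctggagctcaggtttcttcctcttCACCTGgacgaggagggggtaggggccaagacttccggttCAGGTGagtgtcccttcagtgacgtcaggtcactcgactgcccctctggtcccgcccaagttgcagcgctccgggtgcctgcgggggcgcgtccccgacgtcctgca
F11r, chr1:171437311-171437610: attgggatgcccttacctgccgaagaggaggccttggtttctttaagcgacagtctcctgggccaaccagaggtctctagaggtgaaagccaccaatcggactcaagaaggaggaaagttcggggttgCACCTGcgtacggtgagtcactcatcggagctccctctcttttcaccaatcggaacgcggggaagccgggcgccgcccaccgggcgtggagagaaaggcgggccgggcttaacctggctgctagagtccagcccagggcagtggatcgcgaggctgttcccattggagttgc
Cgn, chr3:94786433-94786732: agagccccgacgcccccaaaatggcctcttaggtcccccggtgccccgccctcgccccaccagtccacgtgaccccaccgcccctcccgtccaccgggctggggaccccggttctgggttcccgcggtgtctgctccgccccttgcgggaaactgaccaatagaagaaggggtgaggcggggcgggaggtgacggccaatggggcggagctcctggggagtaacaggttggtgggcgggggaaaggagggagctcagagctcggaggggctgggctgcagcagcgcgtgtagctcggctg
Ocln, chr13:100552669-100552968: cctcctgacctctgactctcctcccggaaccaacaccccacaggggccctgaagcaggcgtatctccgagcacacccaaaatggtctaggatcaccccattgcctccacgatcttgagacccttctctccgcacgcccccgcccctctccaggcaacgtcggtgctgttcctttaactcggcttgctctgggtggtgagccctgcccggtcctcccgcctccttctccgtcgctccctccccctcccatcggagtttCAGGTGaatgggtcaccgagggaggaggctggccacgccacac
Ocln, chr13:100552449-100552748: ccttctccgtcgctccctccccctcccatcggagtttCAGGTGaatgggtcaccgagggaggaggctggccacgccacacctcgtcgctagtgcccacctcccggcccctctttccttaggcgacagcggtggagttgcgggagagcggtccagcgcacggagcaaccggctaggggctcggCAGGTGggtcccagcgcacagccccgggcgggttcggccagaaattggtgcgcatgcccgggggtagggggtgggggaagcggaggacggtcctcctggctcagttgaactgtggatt
The first Cldn7 window held no E-box, and the second held 2, which begin 97 and 57 bases before the start. F11r had 1 E-box, 122 bases before its start, and the Cgn window held none. The first Ocln window had 1, which begins at base 8 of the transcript and is also the first of 2 in the second window. An E-box lay in at least 1 window of 12 of the 21 genes (57.1%), 8 of 12 tight junction genes, 2 of 6 adherens junction genes and 2 of 3 desmosome genes. Of the 27025 genes in the RefSeq table, counted without leaving out a chromosome, 22.6% had one. Genes with more windows have more places for a match. Counted by window, 15 of 30 windows of the junction genes held an E-box, against 20.2% of all 32851 windows. The 12 genes were Cldn3, Cldn4, Cldn6, Cldn7, Ocln, Marveld2, F11r, Tjp3, Epcam, Nectin2, Dsp and Pkp4. A match is a description of letters, and genes with an E-box were found among those higher and among those lower with doxycycline.

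Levels per exon length separate abundant junction components from sparse ones. On the scale of CPM per kilobase of merged exon, averaged over all 10 tumours, Epcam, an epithelial adhesion molecule, had the highest level of the 38 genes at 126. Ctnnb1, the beta-catenin that links cadherin to actin and also signals in the Wnt pathway, followed at 103, and the E-cadherin gene Cdh1 stood at 62.1. Among tight junction genes Cldn3, a barrier-forming claudin, was highest at 53.4, followed by F11r, the adhesion receptor JAM-A, at 28.8 and Cldn7 at 20.6. The desmosome genes were led by Perp, a tetraspan membrane protein and p53 target, at 51.0, and by Jup, the plakoglobin gene, at 40.7. At the low end of the 36 genes tested below lay Evpl (envoplakin) at 1.33, Dsg3 (desmoglein 3) at 0.906 and Cldn23 at 0.432 CPM per kilobase. Reads of Ctnnd1, which encodes p120-catenin, may be undercounted, since 4482 of its 7319 exon bases are shared on the same strand with the predicted gene Gm28635 and the counting of shared bases is not stated in the labels. Exons on the opposite strand overlap those of 8 genes by 40 to 759 bases, most for Ctnnb1 (Ulk4) and Dsp (Gm10129, 499 bases), and reads there cannot be assigned without the strand setting.

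**Figure D1:**
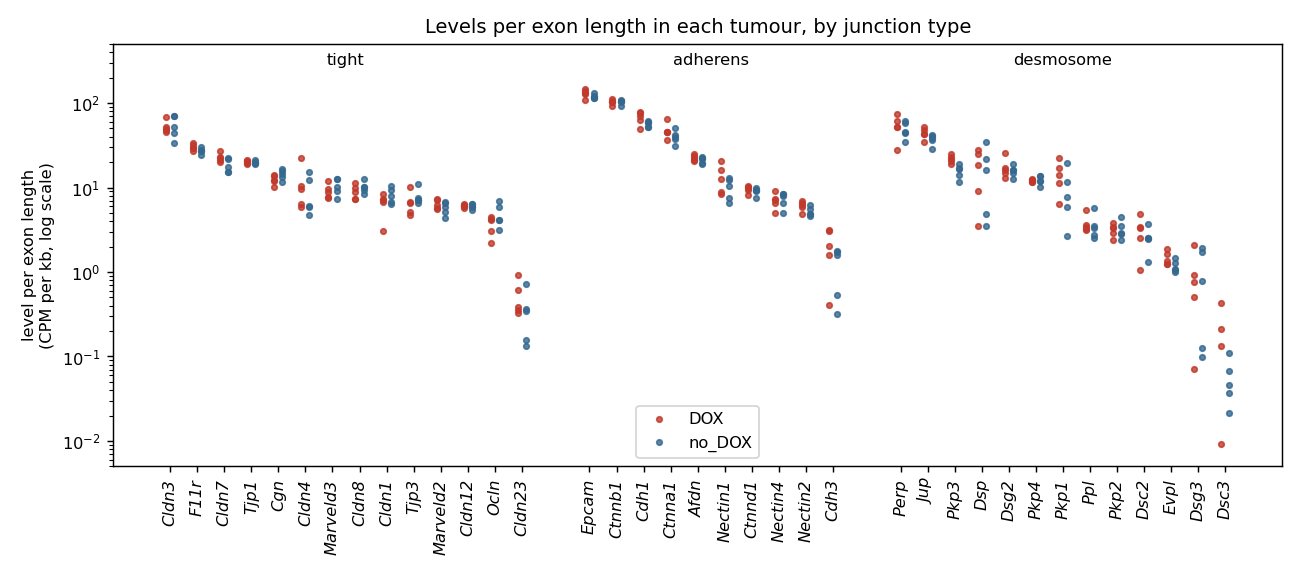
Level of each junction gene per exon length (CPM per kilobase, log scale) in each DOX tumour (left point column of each gene) and each no_DOX tumour (right point column), by junction type and mean level. Epcam (126 on average) and Ctnnb1 (103) are at the top, and the points of Dsg3, Dsp, Cdh3 and Pkp1 are spread far apart within both groups. Cldn6 and the DOX tumour with no Dsc3 read are not drawn.

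Between DOX and no_DOX tumours, no junction gene passed edgeR's test over all genes, and the changes were small. Of the 38 genes, 36 passed the filter on low counts, of which 24 (66.7%) were higher and 12 lower, and the median log2 fold change was 0.12, where 50.5% of all 16167 genes tested were higher and their median was 0.0024. The edgeR quasi-likelihood test called 0 of the 36 at an adjusted p under 0.05, and 0.00% of all genes. Unadjusted p fell under 0.05 for 3 genes, Pkp3, Cldn7 and Cdh1, all higher, or 8.33% of the 36, against 16.0% of all genes tested (8.20% higher and 7.83% lower). In 1 gene, Pkp3, no DOX tumour overlapped a no_DOX tumour, 2.78% of the 36 against 2.94% of all genes (1.82% above and 1.13% below). Counted in the higher direction alone, the shares were 8.33% against 8.20% of all genes for the unadjusted p, and 2.78% (1 gene) against 1.82% for no overlap. The 3 genes became 8 without DOX 2 (with Dsc3, which then passed the filter), or 21.6% against 10.3% of all genes higher. They became 7 without no_DOX 3 (18.9% against 10.3%) and 1, Pkp3, without DOX 5 (2.78% against 6.68%), no_DOX 1 (2.70% against 7.22%) or no_DOX 5 (2.70% against 7.25%). Without no_DOX 1 there were 2 lower genes, Ocln and Cgn (5.41% against 6.49% of all genes lower). Over the 21 other settings, 23 of the 36 genes kept their direction and 13 turned in at least 1, Cldn3, Dsp, Pkp2 and Dsg3 most often. DESeq2 called Pkp3 (2.12% of all genes called, 1.32% higher and 0.796% lower) and limma voom with sample weights called Pkp3 (4.79% of all genes called, 2.12% higher and 2.68% lower), in both cases as higher, and as the 1 gene of 35 with an adjusted p in DESeq2 and of 36 in voom.

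**Figure D2:**
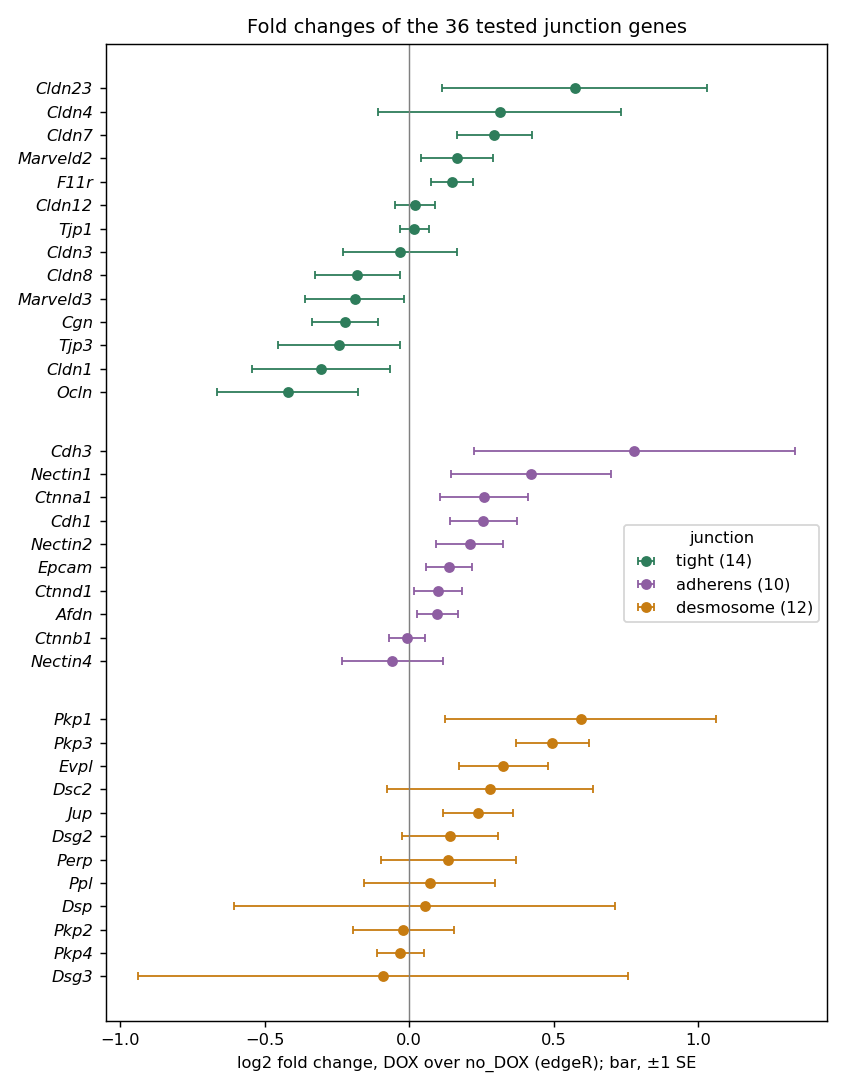
Log2 fold change, DOX over no_DOX, of the 36 tested junction genes (points) with its standard error (bars, edgeR), ordered within each junction type. Pkp3 (0.49) stands farthest from 0 relative to its standard error, tight junction genes fall on both sides of 0, and 8 of 10 adherens junction and 9 of 12 desmosome genes are above it.

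Tight junction genes were split evenly, 7 higher and 7 lower of 14 tested (median log2 fold change -0.0068). Of the claudins, the strand-forming proteins, 4 were higher and 3 lower. Cldn7 had 44.2, 39.2, 41.0, 53.2 and 44.0 CPM in DOX tumours 1 to 5, against 29.8, 34.5, 42.8, 43.7 and 29.7 CPM in no_DOX tumours 1 to 5. The highest value, in DOX 4, exceeded every no_DOX tumour, and so did DOX 1 and DOX 5, while no_DOX 3 and no_DOX 4 reached into the DOX range. Means were 44.3 ± 5.37 CPM in DOX tumours and 36.1 ± 6.83 CPM in no_DOX tumours (SD, n = 5 each), with a log2 fold change of 0.29 (SE 0.130) and an edgeR adjusted p of 0.300. Cldn3 had 62.1, 60.02, 66.2, 86.4 and 57.7 CPM in DOX tumours 1 to 5, against 42.5, 87.7, 64.9, 89.2 and 55.2 CPM in no_DOX tumours 1 to 5. The groups overlapped throughout, with no_DOX 2, no_DOX 4 and DOX 4 as the 3 highest, and the log2 fold change was -0.032 (SE 0.197), with an edgeR adjusted p of 0.952 and a direction that turned in 9 of 21 other settings. Cldn4, a barrier claudin that like Cldn3 binds Clostridium perfringens enterotoxin, ranged over 10.6 to 40.4 CPM in DOX tumours and 8.50 to 27.6 CPM in no_DOX tumours, and DOX 5 held its highest value. Cldn1, required for the skin barrier, ranged over 14.8 to 40.9 CPM in DOX tumours and 30.9 to 50.02 CPM in no_DOX tumours and had its lowest value in DOX 2. Cldn8 (17.0 to 27.0 CPM in DOX tumours and 19.7 to 29.6 CPM in no_DOX tumours) had a log2 fold change of -0.18 (SE 0.147). Cldn12 was among the steadiest of the 38 genes, at 24.2 to 27.0 CPM in DOX tumours and 22.6 to 27.3 CPM in no_DOX tumours. Cldn23 was read on only 5 to 29 counts per tumour, with 0.600 to 1.69 CPM in DOX tumours and 0.249 to 1.32 CPM in no_DOX tumours. Cldn6, a claudin of embryonic epithelia, gave 1 read each in DOX 1, DOX 4 and DOX 5 and none in the other tumours, so it was not tested.

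The other membrane proteins of the tight junction were F11r and the MARVEL proteins. F11r had 85.1, 72.9, 78.4, 77.3 and 89.1 CPM in DOX tumours 1 to 5, against 71.1, 74.5, 81.3, 65.0 and 71.8 CPM in no_DOX tumours 1 to 5. DOX 1 and DOX 5 exceeded every no_DOX tumour and the other DOX tumours fell within the no_DOX range (log2 fold change 0.15 (SE 0.0737), edgeR adjusted p = 0.348). Ocln, the gene of occludin, had 17.3, 9.30, 19.0, 17.9 and 12.9 CPM in DOX tumours 1 to 5, against 13.3, 24.8, 17.6, 29.5 and 17.3 CPM in no_DOX tumours 1 to 5. No_DOX 2 and no_DOX 4 were the highest, and DOX 2 and DOX 5 lay below every no_DOX tumour (log2 fold change -0.42 (SE 0.243), edgeR adjusted p = 0.405). With voom the log2 fold change of Ocln was -0.061. Marveld3 ranged over 24.9 to 39.2 CPM in DOX tumours and 23.8 to 41.8 CPM in no_DOX tumours, with a log2 fold change of -0.19 (SE 0.171). Marveld2, the tricellulin of 3-cell contacts, leaned the other way, over 19.0 to 24.4 CPM in DOX tumours and 14.9 to 22.5 CPM in no_DOX tumours with 0.16 (SE 0.124).

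Of the 3 scaffolds beneath the tight junction, 2 were lower and 1 higher. Cgn, the gene of cingulin, which links the junction to actomyosin, had 60.3, 81.5, 73.4, 85.4 and 71.0 CPM in DOX tumours 1 to 5, against 70.0, 94.7, 87.6, 100.2 and 80.7 CPM in no_DOX tumours 1 to 5. DOX 1 lay below every no_DOX tumour, and no_DOX 2, no_DOX 3 and no_DOX 4 lay above every DOX tumour. Its means were 74.3 ± 9.78 CPM in DOX tumours and 86.6 ± 11.9 CPM in no_DOX tumours (SD, n = 5 each), a log2 fold change of -0.22 (SE 0.114) and an edgeR adjusted p of 0.358. Tjp3, encoding ZO-3, ranged over 17.3 to 37.6 CPM in DOX tumours and 24.2 to 40.6 CPM in no_DOX tumours with a log2 fold change of -0.24 (SE 0.210). Tjp1, encoding ZO-1, varied least of the 36 tested genes, its highest tumour having 1.13 times the level of its lowest, and had a log2 fold change of 0.018 (SE 0.0504).

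**Figure D3:**
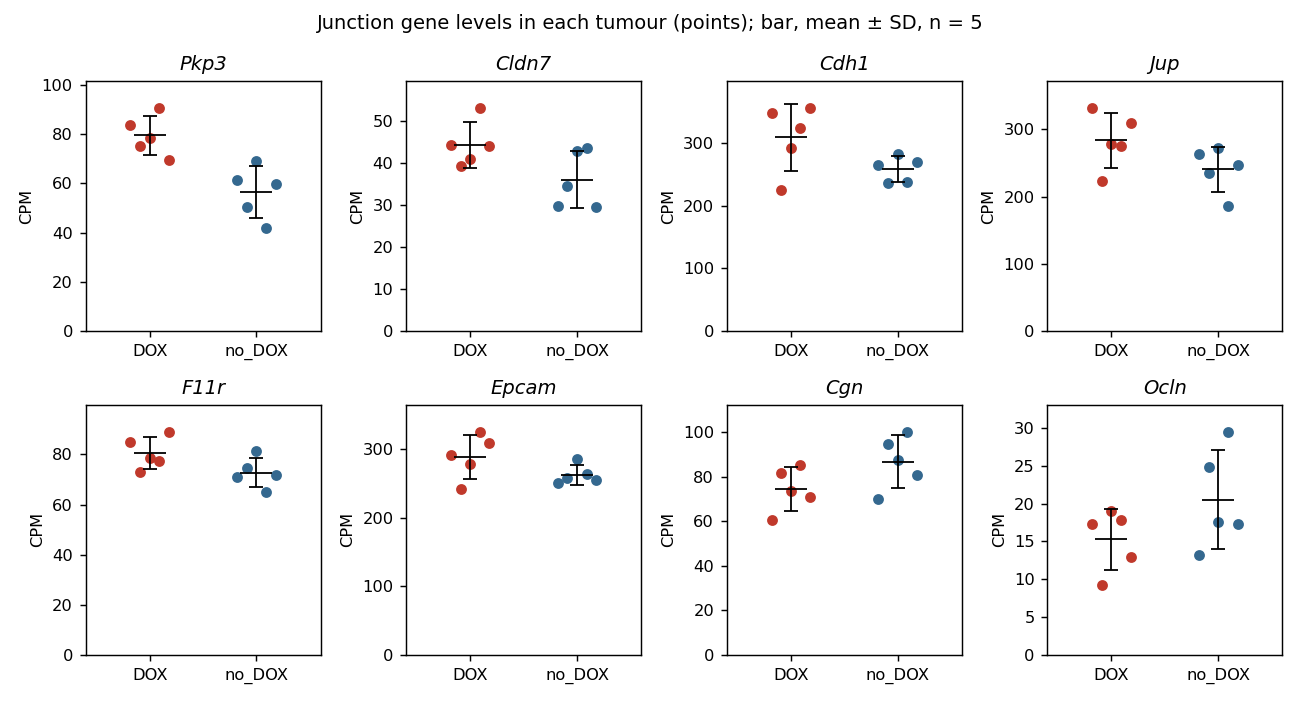
CPM in each tumour (points, 5 DOX left and 5 no_DOX right in each panel) with mean and SD (bars) for Pkp3, Cldn7, Cdh1, Jup, F11r, Epcam, Cgn and Ocln, each axis starting at 0. The 5 DOX tumours of Pkp3 lie at 69.6 to 90.7 CPM, all above the no_DOX tumours at 41.7 to 68.9 CPM, and the groups overlap in the other panels.

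Adherens junction genes were higher in 8 of 10, the median log2 fold change being 0.17. The unadjusted edgeR p was under 0.05 for 1 of the 10, Cdh1, which was higher (10%, against 8.20% of all genes higher). The median was 0.11 without DOX 4 and with the basal marker level as a covariate, 0.097 without both no_DOX 4 and DOX 5, and 0.090 with the epithelial level (mean of 8 epithelial markers) as a covariate. Cdh1, whose E-cadherin holds epithelial cells together, had 349, 225, 292, 324 and 356 CPM in DOX tumours 1 to 5, against 265, 237, 283, 238 and 270.5 CPM in no_DOX tumours 1 to 5. All DOX tumours but DOX 2 exceeded every no_DOX tumour, and DOX 2 was the lowest of all 10. Means were 309 ± 53.2 CPM in DOX tumours and 259 ± 20.3 CPM in no_DOX tumours (SD, n = 5 each), with a log2 fold change of 0.26 (SE 0.116), an unadjusted p of 0.0491 and an edgeR adjusted p of 0.311. Without DOX 2 the log2 fold change was 0.35 and the edgeR adjusted p 0.108. Epcam had 291, 241, 278, 326 and 309 CPM in DOX tumours 1 to 5, against 250.2, 257, 286, 264 and 255 CPM in no_DOX tumours 1 to 5. It showed the same arrangement in part, with DOX 2 the lowest and DOX 1, DOX 4 and DOX 5 above every no_DOX tumour (log2 fold change 0.14 (SE 0.0791), edgeR adjusted p = 0.401). Cdh3, the P-cadherin gene of myoepithelial cells, spread widely over the tumours of both groups. It had 13.6, 7.00, 8.96, 1.79 and 13.5 CPM in DOX tumours 1 to 5, against 7.64, 2.32, 7.83, 1.39 and 7.06 CPM in no_DOX tumours 1 to 5. DOX 4, no_DOX 2 and no_DOX 4 lay at 1.39 to 2.32 CPM and the other 7 tumours at 7.00 to 13.6 CPM, and the log2 fold change was 0.78 (SE 0.555) (edgeR adjusted p = 0.493).

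Among the catenins, Ctnna1, whose alpha-catenin couples the complex to actin, ranged over 237 to 415 CPM in DOX tumours and 199.9 to 321 CPM in no_DOX tumours, with a log2 fold change of 0.26 (SE 0.153). Ctnnd1 had 0.10 (SE 0.0841), and Ctnnb1, at 485 to 578 CPM in DOX tumours and 485 to 561 CPM in no_DOX tumours, had -0.0088 (SE 0.0618). The nectins, immunoglobulin-like receptors that initiate cell contacts, had log2 fold changes of -0.058 to 0.42, and differences among them were not tested. Nectin2 had 17.0, 23.0, 20.4, 21.7 and 24.2 CPM in DOX tumours 1 to 5, against 16.0, 21.9, 17.1, 19.7 and 17.1 CPM in no_DOX tumours 1 to 5. DOX 2 and DOX 5 exceeded every no_DOX tumour, and DOX 1 was among the lowest (log2 fold change 0.21 (SE 0.115), edgeR adjusted p = 0.388). Nectin1 ranged over 47.5 to 117 CPM in DOX tumours and 36.7 to 74.0 CPM in no_DOX tumours (log2 fold change 0.42 (SE 0.276)) and Nectin4 over 18.7 to 33.7 CPM in DOX tumours and 18.7 to 31.7 CPM in no_DOX tumours (-0.058 (SE 0.174)). The value of Nectin4 was 0.078 with voom, on the other side of 0. Afdn, the gene of afadin, ranged over 212 to 254 CPM in DOX tumours and 196 to 234 CPM in no_DOX tumours (0.10 (SE 0.0703)).

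Desmosome genes were higher in 9 of 12 tested, the median log2 fold change being 0.14, and held the smallest p of the 36 genes. The median was 0.30 without no_DOX 3, 0.28 without DOX 2, 0.26 without no_DOX 1, 0.083 without both no_DOX 4 and DOX 5 and 0.063 with the epithelial level as a covariate. Pkp3, the plakophilin of simple and stratified epithelia that gathers desmosomal plaque proteins (GRCm38 chromosome 7, 141078218 to 141090510, plus strand, protein coding), had 83.5, 75.1, 78.5, 90.7 and 69.6 CPM in DOX tumours 1 to 5, against 61.4, 50.4, 68.9, 41.7 and 59.7 CPM in no_DOX tumours 1 to 5. All 5 DOX tumours exceeded all 5 no_DOX tumours, and the gap between DOX 5 and no_DOX 3 was small. Means were 79.5 ± 8.06 CPM in DOX tumours and 56.4 ± 10.55 CPM in no_DOX tumours (SD, n = 5 each), a 1.41-fold ratio, with a log2 fold change of 0.49 (SE 0.126), an unadjusted p of 0.00246 and an edgeR adjusted p of 0.196. The adjusted p was 0.0268 with DESeq2 and 0.0352 with voom, whose weight for the deep library DOX 3 was 4.65 against 0.465 to 1.04 in the other DOX tumours. The log2 fold change ranged from 0.40 to 0.57 when each tumour was left out in turn, with edgeR adjusted p of 0.0809 or more.

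The other armadillo proteins of the plaque did not show that separation. Jup had 332, 224, 278, 276 and 309 CPM in DOX tumours 1 to 5, against 264, 234, 272, 185 and 247 CPM in no_DOX tumours 1 to 5. DOX 1, DOX 3, DOX 4 and DOX 5 exceeded every no_DOX tumour and DOX 2 lay below all no_DOX tumours but no_DOX 4 (log2 fold change 0.24 (SE 0.122), edgeR adjusted p = 0.357). Pkp1, the plakophilin of stratified and basal epithelium, had 85.0, 31.8, 71.2, 57.1 and 113 CPM in DOX tumours 1 to 5, against 57.6, 29.4, 98.1, 13.3 and 38.6 CPM in no_DOX tumours 1 to 5. Its no_DOX tumours alone ranged from 13.3 to 98.1 CPM, and the log2 fold change was 0.59 (SE 0.469) (edgeR adjusted p = 0.540). Pkp2, whose mutations cause cardiomyopathy in humans, ranged over 12.7 to 20.5 CPM in DOX tumours and 12.9 to 23.98 CPM in no_DOX tumours (-0.021 (SE 0.175)), and Pkp4, which also localises to adherens junctions, over 65.8 to 71.8 CPM in DOX tumours and 58.0 to 78.8 CPM in no_DOX tumours (-0.031 (SE 0.0820)). Whether Pkp3 differed from the other plakophilins in its change was not tested.

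The plakins tie the plaque to keratin. Evpl had 8.04, 10.50, 8.04, 12.1 and 8.64 CPM in DOX tumours 1 to 5, against 6.41, 9.46, 6.68, 8.05 and 7.01 CPM in no_DOX tumours 1 to 5. DOX 2 and DOX 4 exceeded every no_DOX tumour, and no_DOX 2 exceeded the other 3 DOX tumours (log2 fold change 0.33 (SE 0.154), edgeR adjusted p = 0.326). Ppl, the periplakin gene, ranged over 21.4 to 37.1 CPM in DOX tumours and 17.4 to 39.2 CPM in no_DOX tumours (0.071 (SE 0.227)), and DOX 4 held the highest DOX value. Perp had 146, 54.1, 102, 119 and 101 CPM in DOX tumours 1 to 5, against 113, 86.7, 119, 67.5 and 88.2 CPM in no_DOX tumours 1 to 5. DOX 1 was the highest and DOX 2 the lowest tumour of all, and the log2 fold change was 0.13 (SE 0.234) (edgeR adjusted p = 0.795), which turned to -0.016 without DOX 1. Of the desmosomal cadherins, Dsg2, the desmoglein of simple epithelia, ranged over 108 to 210.1 CPM in DOX tumours and 105 to 155 CPM in no_DOX tumours (0.14 (SE 0.167)), with the highest value in DOX 4. Dsc2, its desmocollin counterpart, ranged over 5.50 to 25.7 CPM in DOX tumours and 6.89 to 19.3 CPM in no_DOX tumours (0.28 (SE 0.357)), also with DOX 4 highest. Dsc3, a desmocollin of basal and stratified epithelium, did not pass the low-count filter. It had 43, 1, 46, 0 and 12 counts in DOX tumours 1 to 5, against 4, 12, 6, 2 and 4 counts in no_DOX tumours 1 to 5, so most of its reads came from DOX 1 and DOX 3.

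Some desmosome and cadherin genes of basal and stratified epithelium spread widely over the tumours of both groups. Dsg3 was the 1 tested gene of the 36 whose highest tumour exceeded its lowest more than 10 times (29.3 times). Dsg3 had 6.48, 3.55, 5.31, 0.501 and 14.7 CPM in DOX tumours 1 to 5, against 12.1, 0.887, 13.4, 0.695 and 5.52 CPM in no_DOX tumours 1 to 5. Dsp, the gene of desmoplakin, the plakin that every desmosome needs, had a highest tumour 9.93 times its lowest. Dsp had 272, 87.0, 179.6, 33.8 and 241 CPM in DOX tumours 1 to 5, against 212, 46.8, 335, 33.9 and 156 CPM in no_DOX tumours 1 to 5. For both genes DOX 4, no_DOX 2 and no_DOX 4 were the 3 lowest tumours, and DOX and no_DOX tumours were found at both ends. The log2 fold changes of these genes were -0.09 (SE 0.847) for Dsg3 and 0.054 (SE 0.659) for Dsp, with edgeR adjusted p of 0.969 and 0.977. Cdh3 (9.79 times) and Pkp1 (8.45 times) came next, and DOX 4, low for Cdh3, Dsg3 and Dsp, was at 57.1 CPM for Pkp1 and highest of all for Dsg2 and Dsc2. In 19 of the 36 genes the highest tumour had less than 2 times the level of the lowest.

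**Figure D4:**
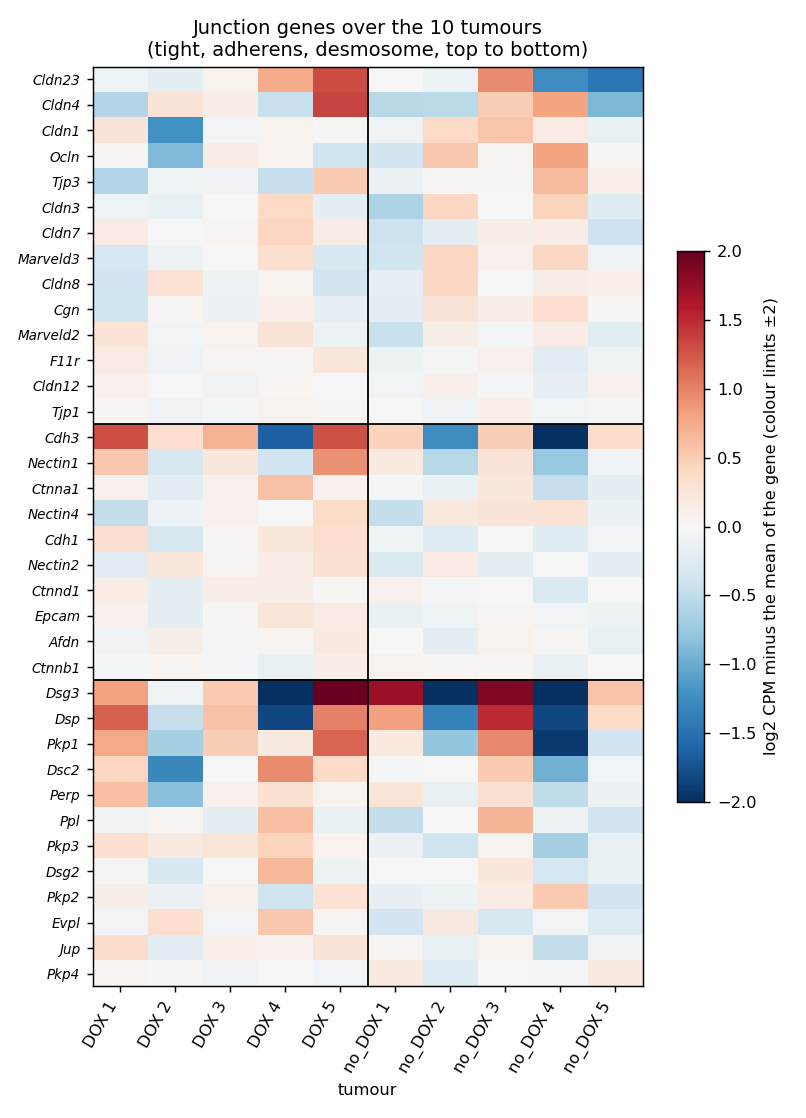
Log2 CPM of the 36 tested junction genes (rows, by junction type, most variable first) in each tumour (columns, DOX left and no_DOX right of the line), minus each gene's mean, with colours limited at ±2. Cdh3, Dsg3 and Dsp are low in DOX 4, no_DOX 2 and no_DOX 4, and no row apart from Pkp3 parts the groups completely.

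Markers of other cell types were set beside these values. Of 12 basal and myoepithelial markers all 12 were higher in DOX tumours (median log2 fold change 0.66), with summed levels of 261 to 966 CPM in DOX tumours and 179 to 568 CPM in no_DOX tumours and no marker at 0. Their level (mean log2 CPM after centring each gene) was 0.942, -0.579, 0.619, -1.001 and 1.425 in DOX tumours 1 to 5, against 0.204, -1.005, 0.494, -1.378 and 0.279 in no_DOX tumours 1 to 5. DOX 4, no_DOX 2 and no_DOX 4, the lowest for Cdh3, Dsg3 and Dsp, were also the lowest for this level. The 2 with the smallest p were Myh11, a smooth muscle myosin gene, at 10.2 ± 4.03 CPM in DOX tumours and 5.28 ± 1.70 CPM in no_DOX tumours, and the basal keratin gene Krt15, at 4.23 ± 2.97 CPM in DOX tumours and 1.43 ± 0.653 CPM in no_DOX tumours (SD, n = 5 each, edgeR adjusted p = 0.235 and 0.245). The squamous and cornified markers, 8 of 17 tested and 5 of these higher, summed to 47.9 to 165 CPM in DOX tumours and 33.3 to 109 CPM in no_DOX tumours. DOX 4, no_DOX 2 and no_DOX 4 were the lowest for the squamous level too, at -1.79, -0.490 and -1.33. They were also the lowest for the epithelial transcription regulators described below, at -0.219, -0.215 and -0.354. The match was therefore not particular to the basal markers. With the basal level as a covariate, added after seeing the data, the log2 fold change of Pkp3 was 0.46 (edgeR adjusted p = 0.201), that of Cdh1 0.18 (edgeR adjusted p = 0.466), that of Evpl 0.45 (edgeR adjusted p = 0.173) and that of Cldn7 0.34 (edgeR adjusted p = 0.319). In the same fit it was 0.14 for Jup, 0.094 for F11r, -0.13 for Cgn and 0.020 for Perp, each smaller than without the covariate by over 1.5 times. Cdh3, Nectin1 and Pkp1 had 0.24, 0.091 and 0.30 in that fit, against 0.78, 0.42 and 0.59 without the covariate.

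**Figure D5:**
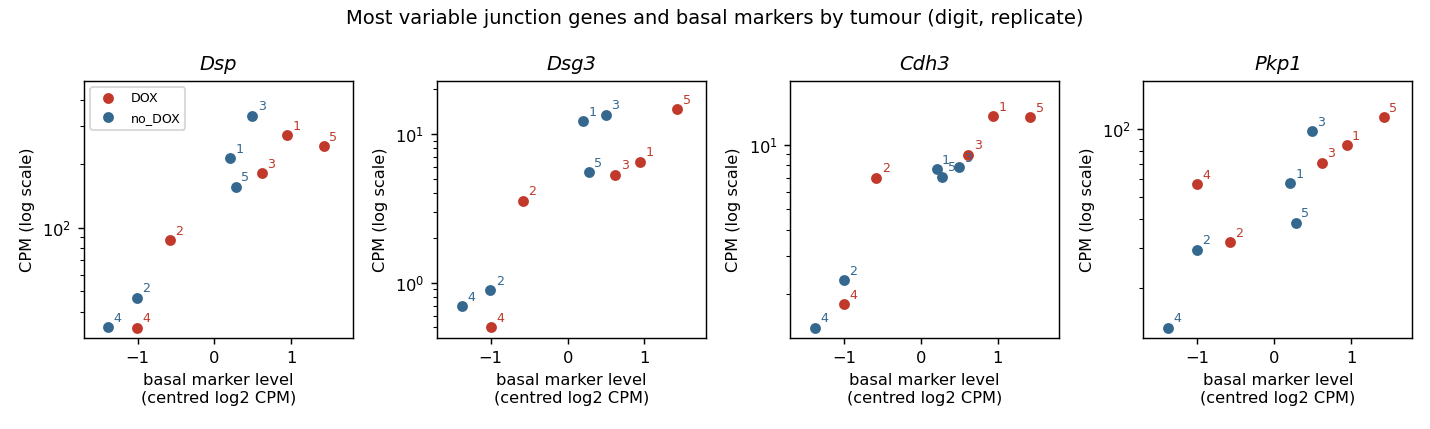
CPM (log scale) of Dsp, Dsg3, Cdh3 and Pkp1 against the level of 12 basal and myoepithelial markers (mean centred log2 CPM) in each tumour, DOX and no_DOX in separate colours, with the replicate number beside each point. DOX 4, no_DOX 2 and no_DOX 4 lie at the left of every panel and at the bottom for Dsp, Dsg3 and Cdh3, whereas DOX 4 is at 57.1 CPM for Pkp1.

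Epithelial markers outside the junction were higher in 9 of 12 (median log2 fold change 0.22), with summed levels of 1207 to 1759 CPM in DOX tumours and 1121 to 1647 CPM in no_DOX tumours and none at 0. The 2 with the smallest p were Wfdc2, at 23.4 ± 12.7 CPM in DOX tumours and 9.73 ± 5.32 CPM in no_DOX tumours, and Rab25, at 33.8 ± 3.27 CPM in DOX tumours and 39.9 ± 5.03 CPM in no_DOX tumours (SD, n = 5 each, edgeR adjusted p = 0.243 and 0.278). With the epithelial level as a covariate, the log2 fold changes were 0.44 (edgeR adjusted p = 0.514) for Pkp3, 0.17 (edgeR adjusted p = 0.721) for Cdh1, 0.25 (edgeR adjusted p = 0.660) for Cldn7 and 0.46 (edgeR adjusted p = 0.524) for Evpl. They were 0.13 for Jup, 0.062 for F11r and 0.0091 for Perp, again smaller by over 1.5 times. Cdh3, Nectin1 and Pkp1 had 0.14, 0.022 and 0.12 with the epithelial level as a covariate. Fibroblast markers were lower in 9 of 10 (median log2 fold change -0.36, summed 74.7 to 182 CPM in DOX tumours and 106 to 179 CPM in no_DOX tumours) and endothelial markers in 9 of 10 (-0.28, summed 94.8 to 145 CPM in DOX tumours and 112 to 148 CPM in no_DOX tumours). Of 7 tested T and NK cell genes, 6 were lower (-0.39, summed 7.44 to 17.9 CPM in DOX tumours and 9.93 to 20.9 CPM in no_DOX tumours). Macrophage markers were higher in 7 of 10 (0.098, summed 431 to 621 CPM in DOX tumours and 441 to 594 CPM in no_DOX tumours) and adipocyte markers in 2 of 3 tested (0.053, summed 26.2 to 47.9 CPM in DOX tumours and 44.1 to 56.2 CPM in no_DOX tumours). No marker gene of these lists was at 0 over all tumours, and their part in the junction gene values was not tested.

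Other genes of the 3 junctions also lay in both directions. Among other tight junction genes, 23 of 31 were tested, of which 14 were higher and 9 lower (median 0.048 in log2), with 6 higher and 2 lower at an unadjusted p under 0.05 (34.8%, against 16.0% of all genes, 8.20% higher and 7.83% lower) and 0 called by edgeR. Jam2, a junctional adhesion molecule of endothelium, was at 5.08 ± 1.59 CPM in DOX tumours and 2.72 ± 0.452 CPM in no_DOX tumours, and Ybx3, a ZO-1-binding transcription factor, at 256 ± 19.2 CPM in DOX tumours and 310.4 ± 23.6 CPM in no_DOX tumours (SD, n = 5 each, edgeR adjusted p = 0.196 for both). Ybx3 was lower in every DOX tumour than in every no_DOX tumour, as were 1.13% of all genes tested. Of other adherens junction genes, 20 of 22 were tested, with 11 higher and 9 lower (median 0.12), 4 higher and 1 lower at an unadjusted p under 0.05 (25.0%) and 0 called. Ajuba, a LIM protein of cadherin contacts, was at 29.6 ± 3.75 CPM in DOX tumours and 17.3 ± 7.52 CPM in no_DOX tumours (edgeR adjusted p = 0.238), and Plekha7, which binds p120-catenin, at 46.2 ± 1.74 CPM in DOX tumours and 55.2 ± 8.32 CPM in no_DOX tumours (0.247). Of other desmosome and plakin genes, 6 of 12 were tested, with 4 higher and 2 lower (median 0.093), 1 higher at an unadjusted p under 0.05 (16.7%) and 0 called. The spectraplakin gene Macf1 was at 382 ± 50.3 CPM in DOX tumours and 315 ± 45.3 CPM in no_DOX tumours (edgeR adjusted p = 0.277), and Tchp, encoding a keratin-binding protein, at 14.7 ± 0.932 CPM in DOX tumours and 13.2 ± 1.39 CPM in no_DOX tumours (0.408).

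Transcription factors that act on junction genes were read alongside. Epithelial regulators were higher in 9 of 14 (median log2 fold change 0.080), with 2 higher and 2 lower at an unadjusted p under 0.05 (28.6%, against 16.0% of all genes) and 0 called by edgeR. Elf5, a regulator of alveolar differentiation, was at 88.6 ± 19.1 CPM in DOX tumours and 126 ± 23.0 CPM in no_DOX tumours, and Tfap2a, an AP-2 factor of ectoderm, at 101 ± 8.82 CPM in DOX tumours and 87.3 ± 4.04 CPM in no_DOX tumours (SD, n = 5 each, edgeR adjusted p = 0.230 and 0.233). Mesenchymal repressors were higher in 6 of 10 (median 0.13), with 1 higher and 1 lower at an unadjusted p under 0.05 (2 of 10, against 16.0% of all genes) and 0 called. Snai1, which binds E-boxes of the E-cadherin promoter, had 25.7, 16.1, 18.9, 26.6 and 15.4 CPM in DOX tumours 1 to 5, against 14.3, 8.13, 15.3, 4.98 and 12.5 CPM in no_DOX tumours 1 to 5. It was above every no_DOX tumour in all 5 DOX tumours (log2 fold change 0.89 (SE 0.286), edgeR adjusted p = 0.238), as were 1.82% of all genes tested. Cdh1 was above every no_DOX tumour in 4 of 5 DOX tumours. Whether the levels of Snai1 and Cdh1 were related was not tested. Tcf4, a basic helix-loop-helix factor, was at 143 ± 18.6 CPM in DOX tumours and 171 ± 15.3 CPM in no_DOX tumours (edgeR adjusted p = 0.257).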

How the data were processed

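The deposited file holds whole-number read counts per gene from the authors for all 10 tumours. Per the submitters' processing notes, reads were handled with bcl2fastq, Trimmomatic, STAR 2.6.0c, featureCounts and DESeq2 on build GRCm38; for the annotation release and strand setting, the sources used here give nothing. Symbols were available for 55154 of 55335 genes. Exon lengths and coordinates came from GENCODE M21, in which 54587 gene versions were identical. Promoter windows on the chromosome of Ctnna1, Dsc2, Dsc3, Dsg2 and Dsg3 were left out of the junction gene counts. The E-box counts of adherens junction and desmosome genes therefore do not cover these genes. The symbols, gene lists and tests were chosen with earlier results of these data known.

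Counts were filtered with filterByExpr (minimum count 10), scaled by TMM and tested with edgeR 4.0.16 (R 4.3.3), quasi-likelihood, 5 DOX against 5 no_DOX tumours without covariates, with Benjamini-Hochberg adjustment over 16167 genes at 0.05. DESeq2 1.42.0 and limma 3.58.1 (voom with sample weights), other scalings and filters, covariates and left-out tumours were alternatives. On counts simulated from these 10 libraries over 16167 genes, the test recovered 31.5% of 200 genes changed 1.5-fold, 63% of those changed 2-fold and 90.5% of those changed 4-fold. CPM per kilobase used merged exon lengths. Total counts were 14256948 to 39358457 per tumour. Pooled over genes, the 20 pairs within groups differed by a chi-square per degree of freedom of 6.76 to 41.9, more than sampling noise gives. This was not checked gene by gene, and genes on few reads, such as Cldn23 at 5 to 29 counts, carry more counting error.

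Values in every tumour are given for genes with an unadjusted p under 0.05 or no overlap, for the 3 smallest p and the highest level per length of each junction type; other genes with per-tumour values (Ocln, Cdh3, Pkp1, Dsp, Dsg3, Dsc3, Snai1) were added for their spread or after their values were seen. The 2 smallest p of each list are named. Protein sequences were not used here.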

Additional observations from a re-analysis of the deposited data

Results flagged for a closer look

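Among 72 sets of 5 tumours (36 tested junction genes in each group), 4 held a tumour set far apart from the other 4 of its group, where chance alone gives about 1 in 20, or 3.6. Cldn1 was lowest in DOX 2 among DOX tumours, at 14.8 CPM. Ppl was highest in DOX 4 among DOX tumours, at 37.1 CPM. Ctnnb1 was lowest in no_DOX 4 among no_DOX tumours, at 485 CPM, and Tjp3 was highest in the same tumour, at 40.6 CPM.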

How the results depend on the processing

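No junction gene was called by edgeR under any alternative run, while DESeq2 called 1 and limma voom with sample weights called 1, Pkp3 in both. The log2 fold change of Pkp3 kept its sign and an unadjusted p under 0.05 in all 21 alternatives. The 3 genes higher at an unadjusted p under 0.05 became 9 with voom (25.0%, against 13.0% of all genes higher) and 8 with the replicate block (22.2%, against 9.15%), and 1 to 8 with 1 tumour left out. The 0 lower genes (against 7.83% of all genes lower) became 1 with the replicate block (Cgn, 2.78% against 7.99%). There was 1 with the basal level as a covariate, an alternative chosen after seeing the data (Dsp, 2.78% against 6.52%). Without both no_DOX 4 and DOX 5 there was 1 (Tjp3, 2.78% against 4.23%). With 1 tumour left out there were 0 to 2, the most without no_DOX 1 (5.41% against 6.49%). Junction genes with no overlap numbered 1 to 3 with 1 tumour left out, the highest without DOX 2. No overlap is easier to reach with fewer tumours, and its share over all genes was not counted in those runs. Without DOX 2, edgeR's unadjusted p fell under 0.05 for 3462 of 16365 genes over the whole table, against 2592 of 16167 in the main setting. Perp turned to -0.016 without DOX 1 and ranged up to 0.29 with 1 tumour left out. Cldn3 turned to 0.14 with the basal level as a covariate, 0.067 with the epithelial level, 0.0012 with library size only, 0.14 with voom, 0.0066 with the replicate block and 0.13 without both no_DOX 4 and DOX 5, and ranged from -0.16 to 0.083 with 1 tumour left out. The cause was not tested. The other log2 fold changes given with values in every tumour by rule kept their direction. Over the whole table edgeR called 0 genes in the main setting, 7 with the replicate block, 5 with the basal level as a covariate, 2 without DOX 2 and 37 without no_DOX 3.

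The labels number the tumours 1 to 5 in both groups. Deviations of same-numbered tumours correlated at 0.264, 0.244, 0.127, 0.122 and 0.0706, all above 0, and 1 of 5 numbers matched best with its own. The labels do not say what the numbers mark, and these values cannot settle whether same-numbered tumours share an origin. The block was kept as an alternative. With the replicate block, Cdh1, Cldn7, Pkp3, Jup, Nectin1, Evpl, Cdh3 and Nectin2 were higher at an unadjusted p under 0.05, and Cdh3 had an unadjusted edgeR p of 0.00613 (adjusted p = 0.197), against 0.188 (adjusted p = 0.493) without the block. Depth limits Cldn6, Dsc3 and Cldn23, with at most 1, 46 and 29 counts in a tumour.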

Other observations

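The markers of other cell types with the smallest p in each list give these levels (mean ± SD, n = 5 each, none called by edgeR). Krt10, a keratin of differentiating epidermis, was at 6.76 ± 8.59 CPM in DOX tumours and 1.54 ± 1.44 CPM in no_DOX tumours, and the calmodulin-like gene Calml3 at 5.25 ± 5.08 CPM in DOX tumours and 2.55 ± 0.498 CPM in no_DOX tumours. The matrix genes Lum and Col14a1 of fibroblasts were at 2.52 ± 1.73 CPM in DOX tumours and 6.91 ± 2.20 CPM in no_DOX tumours for Lum and 17.0 ± 9.10 CPM in DOX tumours and 33.4 ± 10.8 CPM in no_DOX tumours for Col14a1. In endothelium, Vwf, the von Willebrand factor gene, was at 11.8 ± 9.89 CPM in DOX tumours and 3.94 ± 1.33 CPM in no_DOX tumours and the VEGF receptor gene Kdr at 17.3 ± 1.40 CPM in DOX tumours and 21.6 ± 3.04 CPM in no_DOX tumours. Mrc1, the macrophage mannose receptor gene, was at 45.8 ± 16.7 CPM in DOX tumours and 29.2 ± 8.71 CPM in no_DOX tumours, and Fcgr1, an Fc receptor gene, at 2.79 ± 0.629 CPM in DOX tumours and 3.77 ± 0.674 CPM in no_DOX tumours. The T cell genes Cd4 and Cd3e were at 6.07 ± 0.874 CPM in DOX tumours and 8.47 ± 4.16 CPM in no_DOX tumours for Cd4 and 0.913 ± 0.699 CPM in DOX tumours and 1.49 ± 0.186 CPM in no_DOX tumours for Cd3e. Lpl, the lipoprotein lipase gene, was at 22.0 ± 6.85 CPM in DOX tumours and 41.7 ± 6.54 CPM in no_DOX tumours, and the lipid droplet gene Plin4 at 1.64 ± 1.200 CPM in DOX tumours and 0.638 ± 0.4002 CPM in no_DOX tumours. For Lpl every DOX tumour lay below every no_DOX tumour, as in 1.13% of all genes tested.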
